A study of Ovis aries with 5 samples.

Results

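The KITLG window is the stretch of sheep chromosome 3 from 124236035 to 125400001 (Oar_v3.1, 1163967 bp) around KITLG and a pair of selective sweeps, of which the study's list has the smaller overlapping KITLG and the larger holding no gene. Every peak and every joint region that overlapped the window was taken, which gave 269 entries of 296523 in the 7 lists used. These were 74 and 88 H3K27ac peaks in replicates 1 and 2, 10 and 36 H3K4me3 peaks, and the regions of the joint lists, which held 58 H3K27ac regions of 35266, 3 H3K4me3 regions of 16098 and 0 H3K27me3 regions of 31942. The window was selected on a measured value, its number of H3K27ac regions, so that number and the values of the regions are a description and carry no test.

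KITLG encodes KIT ligand, also called stem cell factor, the growth factor that binds the receptor tyrosine kinase KIT. The pathway is needed by melanocytes and their precursors, and also by mast cells, blood stem cells and germ cells, and variants near the gene alter coat colour in several mammals. H3K27ac is an acetyl mark of active promoters and active enhancers, H3K4me3 a methyl mark concentrated at promoters, and H3K27me3 the mark of Polycomb silencing. An H3K27ac region with no H3K4me3 is therefore commonly read as a candidate enhancer.

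The marks were mapped by ChIP-Seq, in which an antibody enriches the nucleosomes that carry a mark and their DNA is sequenced. The tissue was perirenal adipose tissue, the fat around the kidney, of untreated wild-type fetuses of pure bred merino sheep, labelled as 132 days old. There were 2 libraries for H3K27ac (Abcam ab4729) and 2 for H3K4me3 (Abcam ab8580), with 1 from each of 2 animals called replicate 1 and replicate 2, and all were set against 1 pooled input library. With 2 animals, the difference between replicates is the only measure of the spread. After duplicates were removed the H3K27ac libraries held 144 and 146 M tags, the H3K4me3 libraries 92.9 and 110 M, and the input 26.7 M, where a tag is a mapped read. The tissue is a mixture of cell types, in which more cells with a mark and more of the mark per cell cannot be told apart. The markers of fat cells and of other cell types were not analysed here, because no annotation of this build was used, and for the same reason no gene is assigned to a region beyond KITLG itself. In the RefSeq annotation of another sheep assembly the neighbouring protein-coding genes are TMTC3 and CEP290 on one side of KITLG and DUSP6 and POC1B on the other.

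The sweeps, regions of low diversity in domestic sheep, span 40 kb (124640001 to 124680000) and 290 kb (124790001 to 125080000). The strongest H3K4me3 region of the window lay between them, from 124751392 to 124764274. The distances in the study's list of sweeps place an end of KITLG inside it, and which end was not determined. This H3K4me3 region began 71.4 kb after the smaller sweep and ended 25.7 kb before the larger. With 12883 bp it was longer than 99.1% of all joint H3K4me3 regions, at rank 146 of 16098. Both of its ends were those of the replicate 2 peak, and the replicate 1 peak ran from 124754579 to 124763594, or 9016 bp. Replicate 1 had 2438 tags in its peak there, at 74.38-fold enrichment over the input and an FDR of 0.00%. Replicate 2 had 5621 tags at 101.94-fold and an FDR of 0.29%. The 5621 tags exceeded those of 99.9% of the H3K4me3 peaks of replicate 2, and the 2438 tags those of 99.7% in replicate 1. The tag density in the peak, in tags per kb per M tags of the library, was 2.91 in replicate 1 and 3.98 in replicate 2, a ratio of 1.37.

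H3K27ac lay over the whole of this promoter-mark region and beyond both of its ends, from 124747967 to 124765342, which is 3425 bp before its start and 1068 bp after its end. Most of the stretch before the start was not free of H3K4me3. Replicate 2 had a further H3K4me3 peak there, 124748362 to 124751331, with 374 tags at 15.6-fold and an FDR of 2.9%. The H3K27ac peak held 3406 tags in replicate 1 and 3280 in replicate 2, at 41.75- and 38.83-fold. By tags scaled to library depth, averaged over the replicates, it ranked 2 among the 90 H3K27ac loci of the window and above 99.3% of the 58742 loci of all chromosomes, where a locus is a stretch covered by peaks of 1 or both replicates. In these ranks a replicate without a peak entered as having no tags, and tags were not divided by length. Long loci and loci of both replicates therefore rank higher. The summits, the positions of highest tag pile-up, nearly coincided in the 4 libraries. They lay at 124761262 and 124761246 for H3K27ac and at 124761258 and 124761283 for H3K4me3, so all 4 fell within 37 bp.

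**Figure D1:**
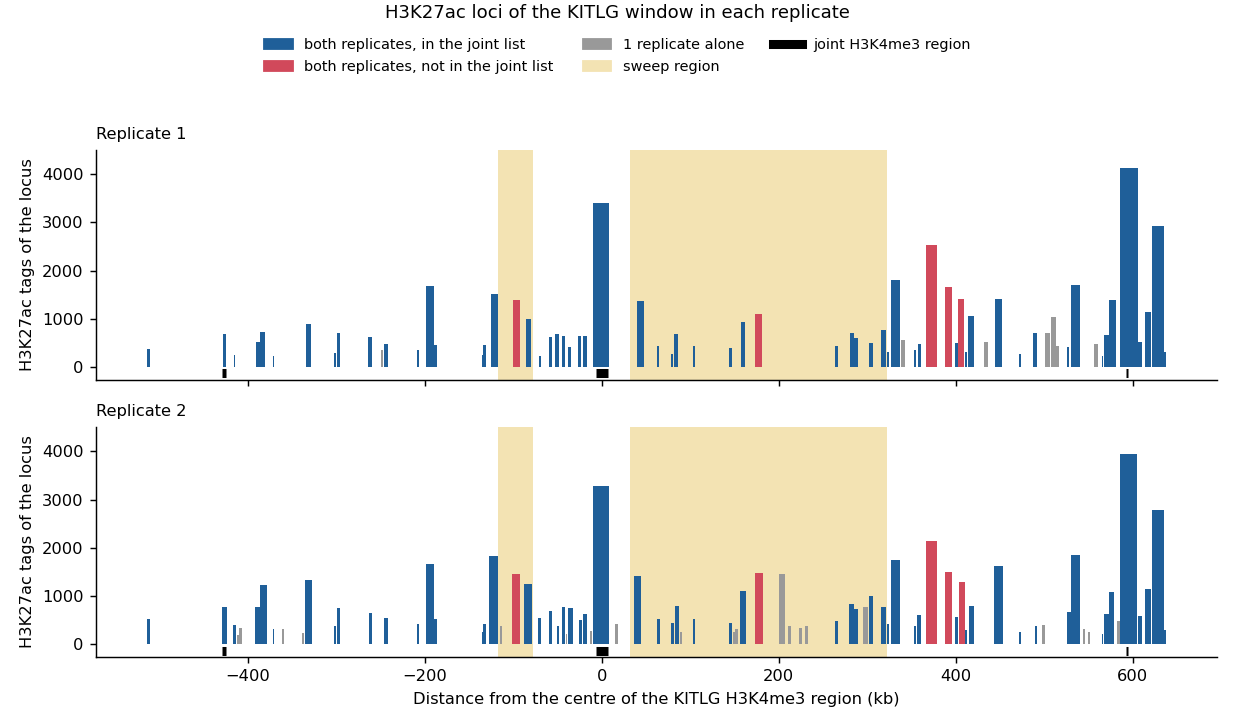
H3K27ac tags of each locus, summed over its peaks, in replicate 1 (top) and replicate 2 (bottom) against the distance in kb from the centre of the H3K4me3 region at KITLG, with bar widths equal to the span of those peaks. Blue bars are loci of the joint list, red bars the 5 loci found in both replicates and missing from it, grey bars loci of 1 replicate, black marks the 3 joint H3K4me3 regions and shading the sweeps; the tallest bars, 4118 and 3943 tags, stand near the right end of the window.

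The peaks of both replicates together formed 90 loci, which covered 39.6% of the window. Of these, 58 were regions of the authors' joint list, 5 were found in both replicates but missing from that list, 7 came from replicate 1 alone and 20 from replicate 2 alone. The 58 joint regions covered 325423 bp, or 28.0% of the window. They were 1822 to 20160 bp long, with a median of 4650 bp against 4300 bp over all joint regions. The gaps between them ran from 1 to 101241 bp, with a median of 7430 bp. The coverage was uneven along the window. It came to 19.9% in the 404.0 kb before the smaller sweep, 22.7% in the smaller sweep, 43.6% in the 110.0 kb between the sweeps, 20.3% in the larger sweep and 40.3% in the 320.0 kb after it. In the same order the segments had 4.21, 5.0, 7.27, 4.48 and 6.25 joint regions per 100 kb. With every locus included the order of the segments changed, since the coverage was 22.8, 53.9, 50.5, 33.1 and 61.2%.

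In the regions that follow, values are given for replicate 1 and then for replicate 2, as tags in the peaks and fold enrichment of the strongest peak. Before the smaller sweep the joint regions were mostly short and far apart. The first of the window, 124243485 to 124247556, had 366 and 523 tags at 18.15- and 19.11-fold. It was followed by 81166 bp without an H3K27ac peak in either replicate, the longest gap between the loci of the window, in which replicate 1 had an H3K4me3 peak of 89 tags from 124262384 to 124263108. The next region, 124328723 to 124333626, had 691 and 767 tags at 32.52- and 31.07-fold and carried a joint H3K4me3 region from 124328906 to 124333212. That H3K4me3 region had 788 and 1545 tags at 72.03- and 84.14-fold, with summits 5 bp apart. It was the second strongest H3K4me3 region of the window by fold in both replicates. Beside it stood a weak region from 124340958 to 124343847 with 242 and 393 tags at 20.87- and 25.73-fold.

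A group of 3 regions followed. The first, 124365919 to 124371349, had 510 and 772 tags at 22.82- and 27.67-fold. The second, after a gap of 22 bp, ran from 124371372 to 124379340 and had 727 and 1232 tags at 30.58- and 31.07-fold. The third, 124385597 to 124387591, had 234 and 318 tags at 22.92- and 28.33-fold. All 3 had a higher tag density in replicate 2, with ratios from 1.09 to 1.18. Farther on, the region from 124422774 to 124430401 had 901 and 1335 tags at 25.91- and 36.41-fold, a density ratio of 1.21. The pair from 124454460 to 124456877 and from 124458045 to 124462333 differed in strength, with 285 and 377 tags at 19.17- and 20.38-fold in the first and 708 and 755 tags at 29.61- and 31.07-fold in the second. The lone regions after it were also higher in fold in replicate 2. The region from 124494006 to 124498165 had 629 and 657 tags at 26.7- and 29.13-fold, and that from 124511649 to 124515770 had 477 and 553 tags at 22.82- and 27.18-fold.

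Nearer the smaller sweep stood a strong region, 124558795 to 124567989, with 1673 and 1654 tags at 34.05- and 29.29-fold, at rank 8 in the window. Its neighbours had fewer tags, although the second of them had a higher fold in replicate 2. The region from 124548935 to 124551360 had 351 and 415 tags at 19.33- and 23.57-fold, and that from 124567991 to 124571925, which 1 bp separated from the strong region, had 463 and 516 tags at 26.7- and 31.55-fold. A last group ran up to the edge of the smaller sweep. Its first members, 124621779 to 124623600 and 124623688 to 124627264, had 253 and 248 tags at 22.73- and 27.67-fold and 456 and 423 tags at 23.46- and 29.61-fold. Its last, 124630395 to 124640818, was 10424 bp long and crossed the edge of the sweep by its final part, with 1513 and 1837 tags at 24.0- and 25.0-fold, at rank 7 in the window.

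In the smaller sweep the joint list held 1 region inside, 124670145 to 124678394, with 1002 and 1255 tags at 28.85- and 30.77-fold, besides the region across the edge. The stronger H3K27ac of this sweep was outside the joint list. The locus from 124656345 to 124665771 had 1385 and 1460 tags at 31.55- and 32.04-fold, at rank 11 in the window, and its FDR of 13.6% in replicate 2 was above the limit of 10% that the joint list follows. In replicate 1 its FDR was at most 5.2%. With every locus included the coverage of the smaller sweep was 53.9%, against 22.7% for the joint regions. Replicate 2 alone had 1 further peak there, 124642409 to 124645465, with 388 tags at 23.79-fold. H3K4me3 peaks of both replicates met over the excluded locus, from 124659390 to 124662484, with 218 and 345 tags and fold enrichments of 25.66 and 24.27. Their FDR was 1.36% in replicate 1 and 2.8% in replicate 2, above the limit of 1% for the joint H3K4me3 list. Replicate 2 had 2 more H3K4me3 peaks in this sweep, 124662857 to 124664395 with 156 tags at 16.6-fold and 124675457 to 124677340 with 339 tags at 34.9-fold.

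Between the sweeps 8 joint regions led up to and included the promoter-mark region at an end of KITLG. No joint region lay in the 24658 bp from the end of the H3K27ac there to the larger sweep. Replicate 2 alone had 1 peak in that space, 124772714 to 124776576, with 422 tags at 15.36-fold. Going from the smaller sweep towards the promoter-mark region, the region from 124685154 to 124689298 had 219 and 545 tags at 22.6- and 23.56-fold. It was called from 124687268 to 124688934 in replicate 1 and over its whole 4145 bp in replicate 2, so the tag densities were close, 0.912 and 0.902. The region from 124698019 to 124701444 was more strongly marked for its length, with 628 and 686 tags at 33.33- and 39.42-fold and densities of 1.3 and 1.4. Over it H3K4me3 was called as 1 peak in replicate 2, 124698112 to 124701256, with 609 tags at 47.84-fold and an FDR of 0.53%. In replicate 1 H3K4me3 was called there as 2 peaks of 141 and 123 tags with an FDR of 2.72 and 1.83%. A second H3K4me3 region, 124701586 to 124703441, came directly after the end of this H3K27ac region and overlapped no H3K27ac peak of either replicate, with 252 and 179 tags at 23.81- and 15.55-fold.

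The 5 regions from there to the promoter-mark region had a lower fold and density in both replicates than that from 124698019 to 124701444. That from 124704882 to 124709698 had 675 and 378 tags at 30.54- and 24.23-fold, and that from 124712296 to 124716573 had 648 and 775 tags at 25.82- and 28.81-fold. The next, 124719798 to 124725403, had 410 and 744 tags at 19.9- and 25.24-fold. The tag counts of these regions moved with the length called in each replicate, and their density ratios lay between 0.975 and 1.17. The region from 124731086 to 124735140 had 637 and 507 tags at 23.09- and 14.12-fold, and its density ratio of 0.86 was the lowest of the joint regions. The region from 124736786 to 124741071 had 647 and 626 tags at 21.25- and 25.0-fold, nearly equal densities of 1.05 and 1.04. H3K4me3 of both replicates met over 1 of these 5, from 124731952 to 124734568, with 116 and 515 tags at 17.6- and 27.94-fold and an FDR of 2.36 and 0.67%. When joint regions no more than 12.5 kb apart were joined, 9 of them formed a run of 95.2 kb from 124670145 in the smaller sweep to 124765342, of which 56.2 kb was covered. This run ranked 160 by covered length among 19712 runs of all chromosomes.

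The larger sweep, 290 kb with no gene in the study's list, held 13 joint H3K27ac regions, 12 of them inside it and 1 across its far edge. None carried a joint H3K4me3 region, which 75.1% of all joint H3K27ac regions also lacked. H3K27me3 was absent from the joint list over the whole window, as it was from 18.8% of autosomal windows of the same length. In the first part of the sweep the longest region was 124794286 to 124805877, with 1360 and 1410 tags at 28.29- and 32.05-fold. The replicates called its ends differently, 124797077 to 124805877 in replicate 1 and 124794286 to 124802577 in replicate 2. The region from 124820310 to 124823344 had 443 and 518 tags at 32.52-fold in both replicates. The neighbours from 124835626 to 124839426 and from 124839888 to 124844585 had 278 and 436 tags at 19.71- and 18.27-fold and 678 and 788 tags at 22.69- and 36.41-fold. The first of this pair had the lowest densities of the joint regions, 0.724 and 0.826. The region from 124860442 to 124863298 had 434 and 521 tags at 26.36- and 30.43-fold. After a gap came a weaker and a stronger region, 124901551 to 124904752 with 399 and 444 tags at 20.39- and 24.27-fold and 124914478 to 124920223 with 940 and 1099 tags at 31.25- and 30.0-fold.

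The longest gap between joint regions of the window, 101241 bp, followed from 124920223 to 125021465, in the middle of the larger sweep, and it was not empty of peaks. It held 1 locus of both replicates, 124930810 to 124939734, with 1102 and 1478 tags at 29.75- and 35.92-fold, whose FDR of 11.6% in replicate 2 was above the limit. In replicate 1 the FDR was 4.61%. It also held 4 peaks of replicate 2 alone. The first of these, 124957523 to 124964353, had 1453 tags, a density of 1.46 and a fold enrichment of 17.68, so that its density was among the highest of the window and its enrichment over the input among the lower values. The other three, 124968442 to 124971670, 124980801 to 124983775 and 124987578 to 124990561, had 386, 341 and 381 tags at 23.6-, 22.02- and 31.82-fold.

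In the last part of the larger sweep the regions were closer together. The region from 125021465 to 125024398 had 442 and 484 tags at 20.33- and 22.67-fold. Those from 125037172 to 125042750 and from 125043093 to 125047811 had 714 and 838 tags at 24.47- and 23.06-fold and 602 and 739 tags at 24.27- and 26.21-fold. The replicates were close in density in this pair, with ratios of 0.95 and 1.1. The region from 125060219 to 125064820 had 490 and 997 tags at 17.14- and 30.77-fold, and its density ratio of 1.64 was the highest of the joint regions. Just before it replicate 2 alone had a peak of 778 tags at 27.6-fold, from 125053554 to 125058879. At the far end, 125073708 to 125079507 had 771 and 777 tags at 30.58- and 28.64-fold. The region across the edge, 125079659 to 125082615, had 314 and 419 tags at 28.64- and 31.07-fold. The other peaks of replicate 2 alone in this sweep were 124845800 to 124848060 with 249 tags at 19.42-fold, 124906288 to 124908213 with 246 tags at 23.64-fold and 124908550 to 124911199 with 317 tags at 23.18-fold. Of the peaks found in 1 replicate alone, the larger sweep thus held 8 of replicate 2 and 0 of replicate 1, and the coverage was 31.8% in replicate 2 against 20.0% in replicate 1. Such peaks were common over all chromosomes, where 76.8% of the H3K27ac peaks of replicate 1 and 80.9% of those of replicate 2 overlapped a peak of the other. A peak missing from a list is not shown to be absent from that animal, since the lists hold only what passed the peak caller.

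H3K4me3 in the larger sweep was likewise seen in replicate 2, with 6 peaks against 0 in replicate 1. Replicate 2 had more H3K4me3 peaks in the whole window, 36 against 10, and over all chromosomes, 62013 against 50339. Of all its H3K4me3 peaks, 61.2% overlapped a peak of replicate 1. The strongest, 124820644 to 124822372, had 344 tags at 51.78-fold and an FDR of 0.85%. Another, 124841564 to 124843715, had 377 tags at 35.61-fold and an FDR of 0.97%, so that these 2 passed the limit of 1% in their own library. The remaining 4 had an FDR above it. They were 124799195 to 124800963 with 246 tags at 25.84-fold, 124917847 to 124919888 with 296 tags at 38.03-fold, 125049772 to 125051323 with 205 tags at 19.44-fold, and 125060514 to 125062529 with 327 tags at 31.94-fold. All but that from 125049772 to 125051323 lay over a joint H3K27ac region.

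**Figure D2:**
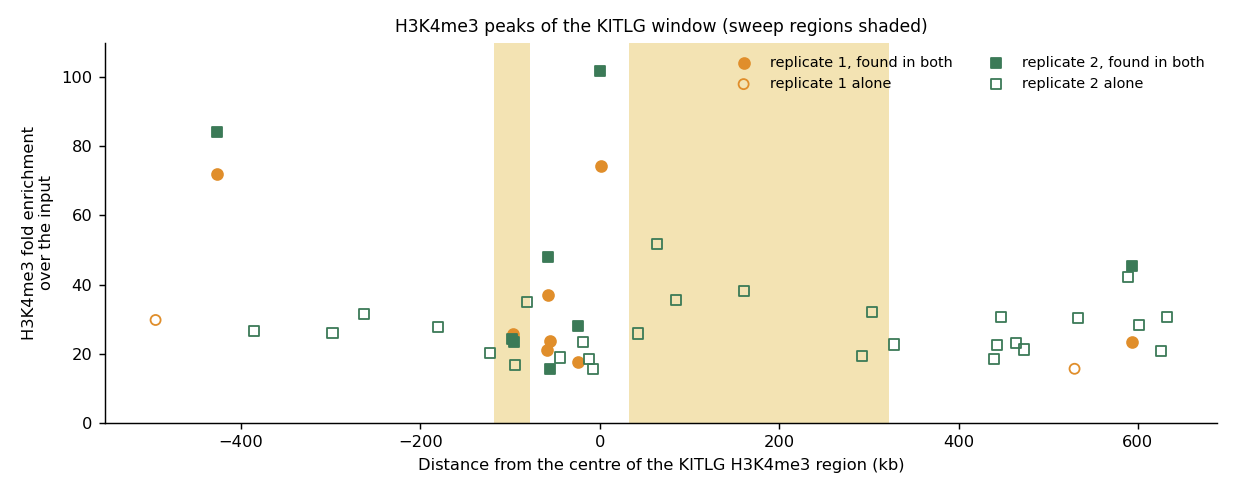
Fold enrichment over the input of each H3K4me3 peak of the window against the distance in kb from the centre of the H3K4me3 region at KITLG, with circles for replicate 1, squares for replicate 2 and filled symbols for peaks that overlapped a peak of the other replicate. The highest symbols are the peaks at distance 0, at 74.38- and 101.94-fold, and the shaded larger sweep holds open squares alone, the 6 peaks of replicate 2.

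After the larger sweep the marking was denser. The region from 125084331 to 125094827 had 1805 and 1737 tags at 35.44- and 38.83-fold, at rank 6 in the window. It closed a run of 6 joint regions from 125037172 that crossed the far edge of the sweep, 57.7 kb long with 34.2 kb covered. The pair from 125110819 to 125113240 and from 125114137 to 125118942 had 356 and 387 tags at 32.04- and 33.98-fold and 481 and 607 tags at 22.91- and 21.8-fold. Next to this pair lay 3 strong loci that the joint list left out. The locus from 125124290 to 125136892 had 2529 and 2140 tags at 37.5- and 36.32-fold, and its FDR was 16.81% and up to 20.23%. That from 125145373 to 125153996 had 1660 and 1491 tags at 38.33- and 37.61-fold and an FDR of 16.03 and 9.43%. That from 125160845 to 125167825 had 1406 and 1297 tags at 53.4- and 41.33-fold and an FDR of 19.14% and up to 7.76%. They ranked 4, 9 and 13 in the window by tags, and the 53.4-fold of the last was the highest H3K27ac enrichment of the window in replicate 1.

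Joint regions lay among and after these loci. That from 125157202 to 125160206 had 487 and 571 tags at 32.04-fold in both replicates, and that from 125168158 to 125170445 had 301 and 292 tags at 20.87-fold in both. The region from 125171246 to 125179031 was called as 2 peaks in replicate 1 and had 1047 and 790 tags at 21.15- and 18.93-fold. The region from 125201545 to 125211004 stood alone and was strong, with 1399 and 1626 tags at 38.98- and 35.91-fold. It was followed by weaker ones, 125229538 to 125231504 with 263 and 258 tags at 23.71- and 25.43-fold and 125244953 to 125250253 with 708 and 378 tags at 20.69- and 17.69-fold. Then came a stretch where the replicates did not meet. Replicate 2 alone had a peak from 125255582 to 125258924 with 399 tags, and replicate 1 alone had 3 in a row, 125259278 to 125264048, 125265317 to 125271215 and 125271220 to 125274578, with 707, 1038 and 436 tags at 26.11-, 26.33- and 19.6-fold.

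The last part of the window held the locus with the most H3K27ac tags. The pair from 125283526 to 125288482 and from 125288678 to 125298788 had 412 and 662 tags at 20.0- and 18.46-fold and 1703 and 1853 tags at 21.88- and 25.0-fold, the second at rank 5. From 125322808 on, 8 joint regions formed a run of 73.3 kb to 125396095, of which 87.1% was covered, and this run ranked 112 of 19712 by covered length. Its first members, 125322808 to 125324891 and 125325911 to 125331328, had 236 and 212 tags at 21.82- and 21.36-fold and 668 and 631 tags at 20.0- and 20.45-fold. The region from 125331403 to 125339548 was stronger, with 1398 and 1088 tags at 32.69- and 29.64-fold.

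The longest region of the window came next, 20160 bp from 125343773 to 125363932. Its locus had 4118 and 3943 tags at 46.12- and 44.17-fold and ranked first in the window and above 99.7% of all loci. The tags of replicate 2 came from 2 peaks, and the first of these, with 1174 tags and an FDR of 11.2%, was above the limit. The H3K27ac summit of replicate 1 lay at 125351243, inside the third joint H3K4me3 region of the window, 125350728 to 125352702. The summit of the larger H3K27ac peak of replicate 2 lay at 125359088, outside it. It fell inside another H3K4me3 peak of replicate 2, 125358311 to 125359429, with 165 tags at 28.21-fold and an FDR of 3.05%. The third joint H3K4me3 region was the weakest of the 3, with 223 and 452 tags at 23.49- and 45.31-fold and densities of 1.33 and 2.09. The run ended with 125363969 to 125368804 with 526 and 583 tags at 18.93- and 20.39-fold, 125372163 to 125378840 with 1145 and 1155 tags at 29.71- and 31.65-fold, 125379578 to 125393417 with 2920 and 2793 tags at 47.57- and 43.2-fold, and 125393453 to 125396095 with 310 and 301 tags at 21.84- and 23.3-fold. The third of these ranked 3 in the window and had the highest fold enrichment of the joint regions in replicate 1. The nearest joint region beyond the window began 13927 bp after its end, at 125413929, and on the other side the nearest ended 5321 bp before its start, at 124230713.

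Replicate 2 had a peak at 67 of the 74 peaks of replicate 1, or 90.5% (95% Wilson interval 81.7 to 95.3%), against 76.8% over all H3K27ac peaks of that library. In the other direction it was 68 of 88, or 77.3% (67.5 to 84.8%), against 80.9%. These intervals hold counting error alone, without any spread from animal to animal, and they treat neighbouring peaks as independent. The window was chosen for its many joint regions, which need a peak in both replicates. High agreement is therefore partly built into that choice, and the gap to the shares over all peaks was not tested. Where both replicates had a peak, a median of 88.5% of the locus was covered by both, and in the 54 loci with 1 peak in each replicate the summits lay 0 to 4201 bp apart, with a median of 251 bp. The tag density of the joint regions was 0.724 to 1.46 in replicate 1 and 0.826 to 1.49 in replicate 2. The ratio of replicate 2 to replicate 1 had a median of 1.04 in the window and 0.978 over all joint regions. It was above 1 in 36 of 58 regions, or 62.1%, against 41.6% of all joint regions. Peaks of 1 replicate alone had a lower median fold than the joint regions of the window, 19.6 for the 7 of replicate 1 and 20.9 for the 20 of replicate 2, against 23.9 and 28.0. The medians over all joint regions were 25.7 and 25.5. The 7 peaks of replicate 1 alone had 358 to 1038 tags at 15.36- to 26.33-fold. The 20 of replicate 2 alone had 193 to 1453 tags at 15.36- to 31.82-fold.

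**Figure D3:**
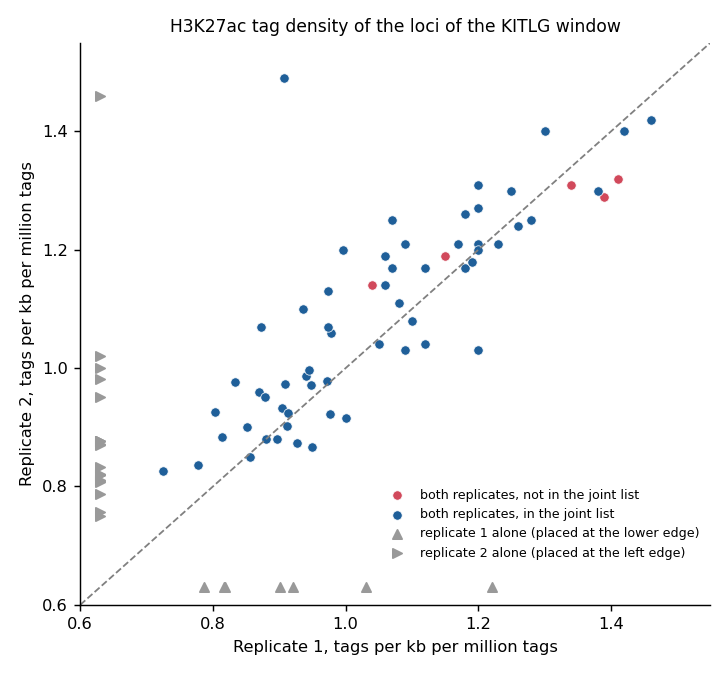
H3K27ac tag density of each locus of the window, in tags per kb per M tags, in replicate 1 (horizontal) and replicate 2 (vertical), with a dashed line of equality. Joint regions (blue) and the 5 loci outside the joint list (red) lie along the line, except the region with 0.907 in replicate 1 and 1.49 in replicate 2, and triangles at the edges are loci of 1 replicate alone.

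The 5 loci of both replicates outside the joint list were not the weak ones. They had 1102 to 2529 tags in replicate 1 and 1297 to 2140 in replicate 2, against medians of 615 and 644 in the joint regions of the window. At every FDR 63 regions of the window were found in both replicates, so 5 of 63 were missing from the joint list, against 5.66% of 37376 over all chromosomes. MACS estimates the FDR of a peak by exchanging the ChIP and input libraries and counting the peaks that reach the same score. In the window the FDR did not fall steadily as the score rose. It was 5.83% for a weak peak of replicate 1 with a score of 51.31, reached its lowest value of 3.83% at scores of 155.32 and 155.76, and was 19.14% for the highest score, 663.17. The 3 peaks of replicate 1 above 10% were those of rank 1 to 3 by score, and the 4 peaks of replicate 2 above 10% were those of rank 1 to 4. These were 4.05 and 4.55% of the peaks of the window, against 3.06 and 3.79% of all peaks. The same held over all chromosomes. The 1559 peaks of replicate 1 above the limit each had a score of at least 518.36 and the peaks within it at most 518.33, and in replicate 2 the 1889 peaks above it had at least 463.36 and those within it at most 463.08. The peaks just inside and just outside the limit in the window had an FDR of 7.2 and 16.03% in replicate 1 and of 9.43 and 11.2% in replicate 2. Among these best-scoring peaks were those of the 5 loci missing from the joint list, at rank 4, 9, 11, 13 and 14 by tags. The remaining peak above the limit, at rank 4 by score in replicate 2, lay almost wholly within a joint region, from 125343773 on. Why the FDR was highest at the highest scores was not tested.

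**Figure D4:**
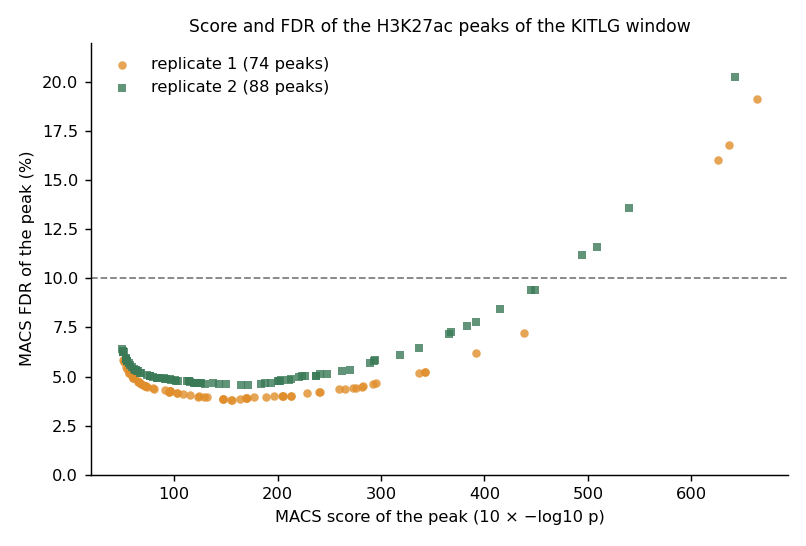
MACS score (10 times the negative log10 of p) and FDR in percent of the 74 H3K27ac peaks of replicate 1 (circles) and the 88 of replicate 2 (squares) in the window, with the limit of 10% as a dashed line. The FDR falls and then rises with the score, and the 7 points above the line are the peaks of highest score in each replicate.

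Of the 58 joint H3K27ac regions, 55 had no joint H3K4me3 region, or 94.8% (Wilson interval 85.9 to 98.2%), against 75.1% of all joint H3K27ac regions. The window was chosen for its many H3K27ac regions and held 3 joint H3K4me3 regions, so this share is largely set by that choice. The interval treats neighbouring regions as independent, and the gap to 75.1% was not tested. When a peak of either replicate at any FDR counted as H3K4me3, 35 had none, or 60.3% against 43.7%. By replicate, 6 of the 58 overlapped an H3K4me3 peak of replicate 1 and 22 one of replicate 2, 10.3 and 37.9% against 39.0 and 53.6%. All 3 joint H3K4me3 regions lay over a joint H3K27ac region, against 55.2% of all joint H3K4me3 regions. Of the single-library H3K4me3 peaks, 8 of 10 in replicate 1 and 8 of 36 in replicate 2 overlapped a peak of the other replicate, against 76.4 and 61.2% of all such peaks. An H3K27ac peak lay over 8 of the 10 peaks of replicate 1 and 30 of the 36 of replicate 2, 80.0 and 83.3% against 48.3 and 51.2%. The window was chosen for its many H3K27ac regions, so a high overlap of H3K4me3 with H3K27ac is built into that choice. This holds for the peaks and for the joint H3K4me3 regions, and no result is drawn from it. The H3K4me3 peaks outside the joint regions had 89 to 252 tags in replicate 1 and 96 to 609 in replicate 2, a range that holds the 223 and 452 tags of the third joint region. The FDR was above 1% for 6 of the 10 peaks of replicate 1 and 29 of the 36 of replicate 2, 60.0 and 80.6% against 54.0 and 69.2%.

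The window was set beside 2087 windows of the same length placed end to end along the 26 autosomes, without those that overlap it. Because it was chosen for its many H3K27ac regions, its high standing by their number and coverage is built into that choice. No result is drawn from that standing, here or against the windows of other sweeps. The median window held 15 joint H3K27ac regions with a 90th percentile of 35, and 2 of the 2087 held more than the 58 at KITLG, the highest with 66. By coverage, 15 windows exceeded the 28.0% at KITLG, and the median was 6.01%. The 3 joint H3K4me3 regions were fewer than the median of 6, as were the 10 H3K4me3 peaks of replicate 1 against a median of 17, whereas the 36 peaks of replicate 2 were more than the median of 23. Among the 144 windows that also held 3, the number of H3K27ac regions was 0 to 50, with a median of 10. The joint H3K27me3 list had 0 regions at KITLG against a median of 4, and 18.8% of the windows also had 0. Of the other sweeps that the study names, only those at GLI3, TBX3 and PANK2 were compared. Windows of the same length around them held fewer H3K27ac regions, at or below the median of 15. GLI3 and TBX3 are transcription factor genes whose sweeps the study lists under pigmentation, while it lists those of KITLG under coat colour. They had 10 and 8 joint H3K27ac regions and 8 and 32 H3K27me3 regions. PANK2, a pantothenate kinase gene, had 15 H3K27ac and 4 H3K27me3 regions and 13 H3K4me3 regions.

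**Figure D5:**
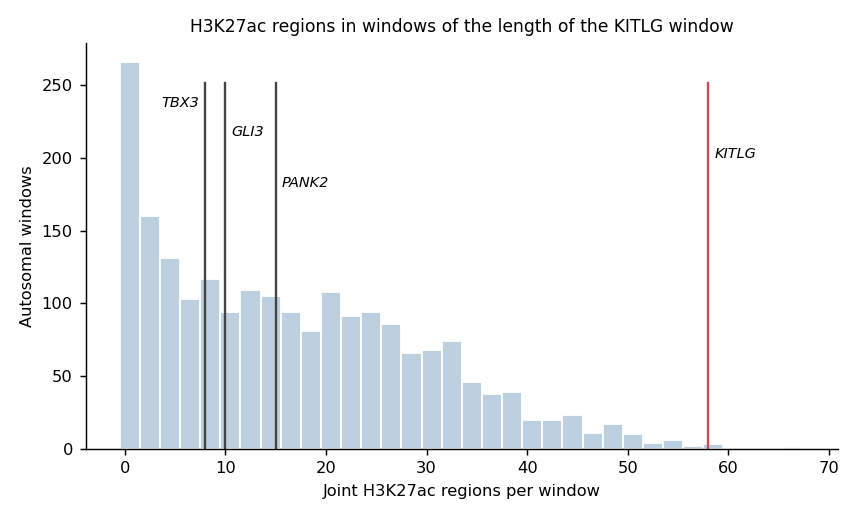
Number of autosomal windows of the length of the KITLG window (vertical) by their number of joint H3K27ac regions (horizontal), with lines at the windows of TBX3 (8), GLI3 (10), PANK2 (15) and KITLG (58). The KITLG line stands in the far right tail, where 2 of the 2087 windows lie beyond it, a place that follows from the choice of the window by this number.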

How the data were processed

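H3K27ac and H3K4me3 were measured by ChIP-Seq in 2 libraries per mark, grouped by mark and animal from the sample labels. The authors mapped reads of 50 bp to Oar_v3.1 with CLC Genomics Workbench 7.0 and called peaks in each library against the pooled input with MACS 1.4.2, at a p-value limit of 1e-05. The peak lists that the authors deposited hold positions, the tag count per peak, a score (10 times the negative log10 of p), the enrichment as a fold or ratio to the input, and an FDR in percent. The deposited joint lists hold positions, and that of H3K27me3 follows an FDR limit of 5%. In the window, every joint region was recovered, start and end alike, by merging peaks that overlapped between replicates, under FDR limits of 10% (H3K27ac) and 1% (H3K4me3). The input was 3.49 to 5.47 times less deep than the ChIP libraries, so fold enrichment and FDR rest on few input tags, and 16.8 to 29.5% of tags were duplicates.

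Positions are 1-based on Oar_v3.1, and an overlap of at least 1 bp counted. Tags were divided by the length of the peaks and by the tags of the library after duplicates were removed. Peaks of both replicates were merged into loci. The window, sweeps and lists were chosen with earlier results of these data known. Every joint region is given by position with its tags and fold, peaks of 1 library by range, and in full within the sweeps, with GLI3, TBX3 and PANK2 for comparison. Gene annotation, sequences and tissue markers were not analysed here, since no genome of this build was used. 2 files of H3K27me3 values per library were left out, as the labels name no such sample. The interval code was tested on simulated data and found 400 of 400 overlaps. The software was Python 3.11.15 with matplotlib 3.10.9, pandas 2.3.3, numpy 2.4.6 and scipy 1.17.1. Alternatives covered the FDR limit, the overlap rule, 1 library alone, the scaling and the windows compared.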

Additional observations from a re-analysis of the deposited data

How the results depend on the processing

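A count was taken as kept within 1.5 times the reported one, a share within its Wilson interval, and other values within the SD of the replicates or the counting error, and so 17 of 36 alternatives for 11 results kept the value and 19 moved it. The ranges for 1 library alone include values of both kinds. Merging peaks at an FDR of at most 5% left 30 H3K27ac regions. With no FDR limit the coverage was 32.0% and there were 7 H3K4me3 regions. Counting any H3K4me3 peak left 35 H3K27ac regions without it. With 1 library alone, the H3K27ac regions numbered 74 to 88, those without H3K4me3 71 to 84, those in the larger sweep 14 to 22 and in the smaller sweep 4, the coverage was 31.4 to 35.1%, and the H3K4me3 regions numbered 10 to 36. A reciprocal overlap of 50% lowered the share of replicate 1 found in replicate 2 to 81.1%. The density ratio was 1.06 with all tags and 1.1 without division by length. Alternatives chosen after seeing the data gave a percentile for the window, with 1 library alone, of 99.1 to 100.0 (rounded), and a longest run covering 116.9 kb, with regions joined within 20 kb, or 145.5 kb, with no FDR limit, against 63.8 kb. Both of these longer runs extend beyond the window. Windows overlapping the KITLG window were also left out after seeing the data. The cause of these changes was not tested.

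No paired analysis was possible because the results come from no test, although libraries of the same number come from the same animal. The lists hold no reads, so weak and absent signal cannot be told apart where 1 library has no peak, and the spread between animals is known from 2 only.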
